A study of Mus musculus with 32 samples.

Results

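The natriuretic peptide genes Nppa and Nppb and the receptor genes Npr1, Npr2 and Npr3 were followed across wild type, hypertrophic and failing mouse ventricle. Probe sets of the series carry 13661 gene symbols singly, and 4 of these 5 are among them. Every probe set was taken whose only annotated gene symbol was 1 of these 5 names, on both array types. The 4 genes with such a probe set had 7 probe sets of 24965 in all: 1 for Nppa, 1 for Nppb and 1 for Npr1 on the first array type, and 3 for Npr3 on the first and 1 on the second. No probe set carried Npr2 as its only symbol, so Npr2 was not analysed here. Of the 7, the probe sets of Nppa and Nppb were bright enough to be tested and the 5 receptor probe sets were not.

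Total RNA of the cardiac ventricle was hybridised to a pair of Affymetrix expression array types that carry different probe sets. On each type there were 5 wild type samples, 8 samples from mice with a transgene named AT1 (cardiac specific, per the labels) and cardiac hypertrophy, and 3 samples from such transgenic mice in cardiac failure. The series holds 32 arrays. What AT1 stands for is not written in the labels, which also give no age, sex, strain or promoter of the transgene, and no count of founder lines. Nor do they state that each sample is a different animal, so the p-values reflect only how these samples vary, which may in part be technical variation.

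Natriuretic peptides are hormones that the heart releases when its walls are stretched. Nppa encodes atrial natriuretic peptide and Nppb brain natriuretic peptide. Both are made as precursors, cut by proteases such as corin and furin, and act on the guanylyl cyclase receptor encoded by Npr1, which makes cGMP, lowers blood pressure and increases salt excretion. Npr2 encodes the related cyclase that prefers C-type natriuretic peptide, and Npr3 encodes a receptor without a cyclase domain that clears the peptides. In the adult mouse, Nppa is made mostly in the atria, and its return in the ventricle is a classical sign of the fetal gene program of the stressed heart.

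Nppa and Nppb are neighbours on chromosome 4. In RefSeq's mouse gene table (GRCm38.p6) Nppb spans bases 147985786 to 147987205 and Nppa bases 148000722 to 148002074, with 13516 bases between the end of Nppb and the start of Nppa. Npr1 lies on chromosome 3 (90450591 to 90465928), Npr2 on chromosome 4 (43629015 to 43651437) and Npr3 on chromosome 15 (11839896 to 11907837) in the same table. The sequences just before the annotated starts of the peptide genes are shown because both genes had their highest group means in failure. The capitals mark matches to any of 4 short motifs that are known from heart genes: TATAAA (the TATA box, top strand only), GATAA (bound by GATA factors such as Gata4, both strands), TNAAGTG (bound by Nkx2-5, both strands) and CATTCC (the M-CAT element bound by TEAD factors, both strands). All sequences are of the plus strand, 5′ to 3′, from RefSeq's GRCm38.p6 promoter table. For Nppa the whole 250 bases before the start are given (chr4:148000472-148000721). For Nppb the gene table begins 114 bases before the start site of the promoter table, so only the 30-base stretches around its matches are given (chr4:147985792-147985821 and chr4:147985857-147985886).
Nppa, bases -250 to -1: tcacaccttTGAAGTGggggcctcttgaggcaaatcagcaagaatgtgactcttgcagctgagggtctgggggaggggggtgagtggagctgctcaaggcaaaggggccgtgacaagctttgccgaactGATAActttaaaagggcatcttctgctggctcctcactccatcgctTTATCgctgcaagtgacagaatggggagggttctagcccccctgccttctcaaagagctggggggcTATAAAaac
Nppb, bases -108 to -79: gcaGGAATGcagctGATAAatcagaGATAA
Nppb, bases -43 to -14: actcagccccagTATAAAaggcagaggcac

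Counted from the start site of the promoter table, TATAAA began at base -9 in Nppa and at base -31 in Nppb. GATAA or its reverse complement began at -121 and -75 in Nppa and at -94 and -83 in Nppb, so each window held 2 matches. TNAAGTG matched at -241 in Nppa and was not found in the Nppb window, and CATTCC matched (as its reverse complement) at -105 in Nppb and was not found in the Nppa window. No match overlapped another. Among 32851 windows of the same length before the starts of mouse genes, 7.59% held TATAAA, 22.6% GATAA, 10.1% TNAAGTG and 12.6% CATTCC. None of the 4 motifs was found in the windows of Npr1, Npr2 and Npr3. A match is a run of letters and was not tested for binding.

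The arrays were first checked as a whole. Median intensity per array was 91.8 to 121 on the first type and 69.3 to 80.6 on the second, and no 2 arrays held identical values. Genes listed as ventricular muscle markers were read over all 16 arrays of the first type. The regulatory light chain gene Myl2 read 7821 to 9118 and the essential light chain gene Myl3 5101 to 7799. The alpha myosin heavy chain gene Myh6 read 7255 to 9799, while Irx4 was not analysed here. The series holds no atrial sample, so these readings do not check the ventricular label. Hypertrophy replicates 6 and 7 stood apart in RNA quality: the 5′ Gapdh probe set read 0.468 and 0.0487 of the 3′ one on the first type, against 0.806 to 0.955 in wild type. The same 5′ to 3′ ratio of Actb was 1.10, 0.765 and 1.02 in the failure arrays of the first type, each above the wild type range of 0.545 to 0.752. In bulk ventricle, fewer cells of a type and less RNA per cell cannot be told apart, nor can more cells and more RNA per cell.

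Nppa read between 929 and 2688 in wild type, spread more widely in hypertrophy, and read high in all failure arrays. Its intensities in wild type replicates 1 to 5 were 2538, 929, 1904, 2688 and 968. In hypertrophy the lowest of the 8 arrays was 646, the median 1429 and the highest 3982. In failure replicates 1 to 3 it read 3475, 3943 and 4420. All 3 failure arrays thus lay above all 5 wild type arrays, while 2 of the 8 hypertrophy arrays (replicates 3 and 4, at 3982 and 3800) lay above the wild type range and 3 of the 8 (replicates 1, 2 and 7, at 842, 646 and 872) below it. The group means were 3946 ± 473 (SD, n = 3) in failure, 1867 ± 1317 (SD, n = 8) across the hypertrophic samples and 1805 ± 836 (SD, n = 5) in wild type.

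Nppb was also highest in failure and had less spread in hypertrophy than Nppa. Its intensities in wild type replicates 1 to 5 were 2868, 1451, 2609, 3055 and 1145. In hypertrophy the lowest array was 958, the median 2283 and the highest 3419, and in failure replicates 1 to 3 it read 4125, 4893 and 3845. All 3 failure arrays lay above every wild type and every hypertrophy array, and 1 hypertrophy array lay above the wild type range and 1 below it. The means were 2225 ± 868 (SD, n = 5), 2184 ± 826 (SD, n = 8) and 4287 ± 543 (SD, n = 3).

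**Figure D1:**
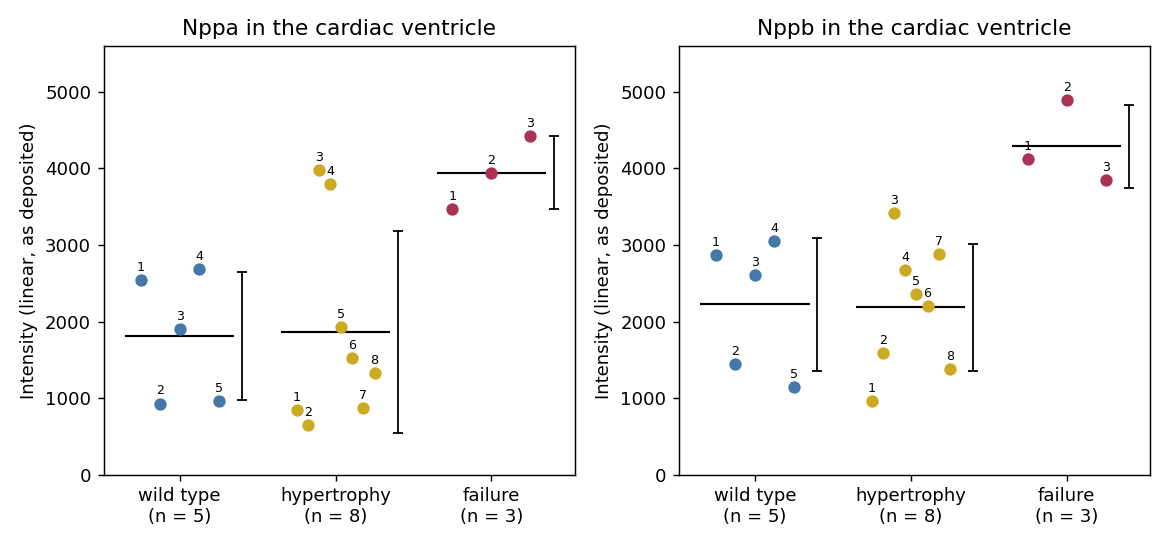
Intensity of Nppa (left) and Nppb (right) on the first array type, 1 point per array, with the replicate number beside each point, the group mean as a line and the SD as a bar (5 wild type, 8 hypertrophy, 3 failure). Failure arrays sit at 3475 to 4420 for Nppa and at 3845 to 4893 for Nppb, above all wild type arrays, while hypertrophy arrays cover and exceed the wild type range on both sides for Nppa.

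The comparison of hypertrophy with wild type asks whether the peptide genes differ in transgenic ventricle labelled as hypertrophic. Neither did so beyond the spread of the arrays. The log2 difference in limma (hypertrophy minus wild type) was -0.11 ± 0.42 (SE) for Nppa, with a 95% interval of -0.99 to 0.78, and -0.03 ± 0.29 for Nppb, with an interval of -0.65 to 0.59. The adjusted p-values were 0.992 and 0.998 in limma, and exact two-sided permutation of the array labels gave unadjusted p = 0.832 and 0.937. So 0 of the 2 tested members were called at an adjusted p under 0.05, and 0 of 2 had an unadjusted limma p under 0.05, against 0% of the 6980 tested probe sets called and 4.47% with an unadjusted p under 0.05. Both signs turned when single arrays were left out: the difference ran from -0.31 (wild type replicate 2 out) to 0.073 (wild type replicate 4 out) for Nppa and from -0.24 (wild type replicate 5 out) to 0.13 (hypertrophy replicate 1 out) for Nppb. Neither gene therefore has a direction here.

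The comparison of failure with wild type asks whether the peptide genes are higher in failing ventricle. On the log2 scale Nppa differed by 1.26 ± 0.54 (SE; 95% interval 0.13 to 2.39), which is 2.40-fold, and Nppb by 1.04 ± 0.38 (0.25 to 1.84), which is 2.06-fold. Neither was called: the limma p-values were 0.0304 and 0.0131 before adjustment and 0.410 and 0.319 after it, where 0.143% of all probe sets were called. Both had an unadjusted p under 0.05 and a higher level in failure, as did 7.15% of the tested probe sets. Ranked by p-value, Nppb stood at 286 and Nppa at 515 of 6980 probe sets. All 3 failure arrays lay above all 5 wild type arrays for both genes, which held for 8.58% of tested probe sets. A log2 difference of 1 or more was rarer: both peptide genes reached it, as did 0.659% of the tested probe sets. Exact two-sided permutation of the labels gave p = 0.0357 for Nppa and 0.0714 for Nppb, unadjusted, over 56 arrangements.

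The comparison of failure with hypertrophy shares the failure arrays with the previous comparison. Nppa differed by 1.37 ± 0.50 (SE; 95% interval 0.32 to 2.42) on the log2 scale and Nppb by 1.07 ± 0.35 (0.33 to 1.81), or 2.59-fold and 2.10-fold. The limma p-values were 0.0133 and 0.00696, and adjusted over all tested probe sets they were 0.367 and 0.312, so neither was called, where 0% of tested probe sets were. Both had an unadjusted limma p under 0.05 with a higher level in failure, as did 7.28% of tested probe sets, and both reached a log2 difference of 1, as did 0.501%. Nppb lay above all 8 hypertrophy arrays in 3 of 3 failure arrays, a separation found in 1.75% of tested probe sets. For Nppa this held in 1 of 3, because hypertrophy replicate 3 (3982) exceeded failure replicates 1 and 2. Exact two-sided permutation over 165 arrangements gave unadjusted p = 0.0606 for Nppa and 0.0182 for Nppb.

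**Figure D2:**
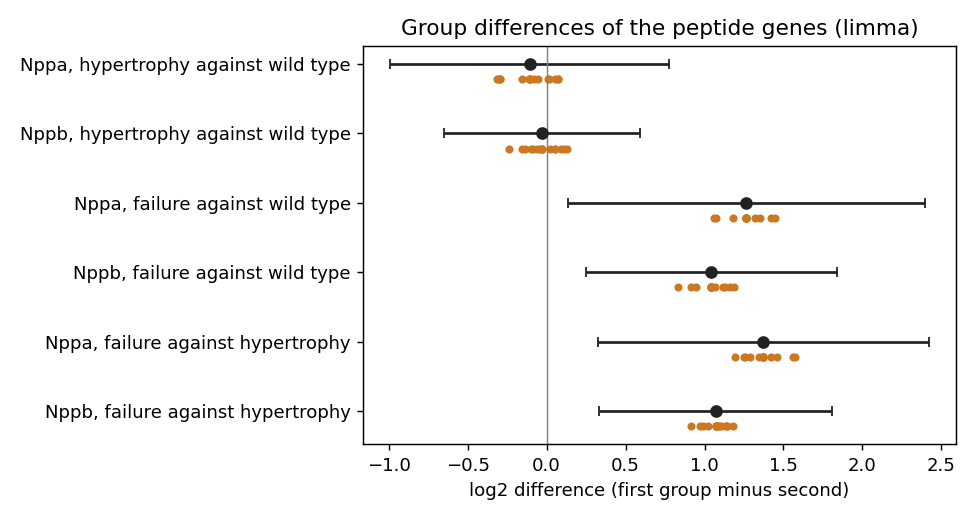
Log2 differences of Nppa and Nppb in the 3 comparisons from limma (black point, with its 95% interval) and with each array left out in turn (orange points); the vertical line marks 0. The intervals for failure lie above 0 and those for hypertrophy against wild type cover it, with orange points on both sides of 0.

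The failure values held their direction with each array left out. Over these fits the difference to wild type was 1.06 to 1.44 for Nppa and 0.83 to 1.18 for Nppb. The Actb ratio was above the wild type range in all failure arrays of the first type. With it as a covariate the differences were 1.36 (Nppa, limma adjusted p = 0.304) and 1.56 (Nppb, limma adjusted p = 0.0838). Xist, an RNA of female cells, read above the Y-linked Eif2s3y on 2 of 3 failure arrays and 2 of 5 wild type arrays. With that as a covariate the differences were 1.25 and 1.06. Array weights, which give less weight to arrays that depart from the rest, put Nppb past the threshold (limma adjusted p = 0.0208 against wild type and 0.0461 against hypertrophy) and left Nppa at 0.0600 and 0.154. The same weights raised the number of probe sets called over the whole first type from 10 to 1002 against wild type.

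The spread between arrays was wide in wild type and hypertrophy and narrow in failure. On the log2 scale the SD of Nppa was 0.74 in wild type and 0.98 in hypertrophy, where 99.4% and 99.6% of the 6980 tested probe sets had a smaller SD, and 0.17 in failure, where 55.8% had a smaller one. Nppb had SDs of 0.64, 0.61 and 0.18, with 98.9%, 95.8% and 57.4% of probe sets below it. The median SD over all tested probe sets was 0.17, 0.26 and 0.16 in the same order. The wild type arrays therefore already differed by 2.89-fold in Nppa and 2.67-fold in Nppb, the hypertrophy arrays by 6.17-fold and 3.57-fold, and the 3 failure arrays by 1.27-fold in each. With 3 failure arrays the narrow range in that group rests on few samples, and the difference in spread was not tested.

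Both peptide genes were often high or low on the same arrays. In wild type, replicates 2 and 5 were the 2 lowest and replicates 1 and 4 the 2 highest for both genes. Over the 8 hypertrophy arrays Pearson's r of the log2 intensities was 0.64 (exact permutation p = 0.0888, adjusted over 5 relations 0.444) and Spearman's rho 0.67 (exact p = 0.0831, adjusted 0.415). Without hypertrophy replicates 3 and 4, the farthest from the Nppa median, r was 0.35. Leaving both out also narrows the range of Nppa, which can by itself lower r. How far the relation rests on them therefore cannot be told from this value. Without replicate 3 alone r was 0.50, and without replicate 4 alone r was 0.62. Without hypertrophy replicate 7 it was 0.84 (exact permutation p = 0.0198, unadjusted), and without replicates 6 and 7 it was 0.86 (exact permutation p = 0.0431, unadjusted).

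The 2 genes came apart on single arrays. The log2 intensity of Nppa minus that of Nppb was -0.34 ± 0.20 (SD, n = 5) in wild type and -0.12 ± 0.28 (SD, n = 3) in failure, and it varied most in hypertrophy, at -0.42 ± 0.75 (SD, n = 8). In hypertrophy it ran from -1.73 in replicate 7 and -1.30 in replicate 2 to 0.51 in replicate 4. The low value of replicate 7 comes with a Nppb intensity of 2882, among the higher ones, and a Nppa intensity of 872, and that array has the Gapdh ratio of 0.0487; replicate 2 had a Gapdh ratio of 0.917. The part of RNA quality in these values was not tested. The mean of this difference did not pass an exact two-sided permutation test in any comparison (p = 0.834 for hypertrophy against wild type, 0.304 for failure against wild type and 0.594 for failure against hypertrophy).

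**Figure D3:**
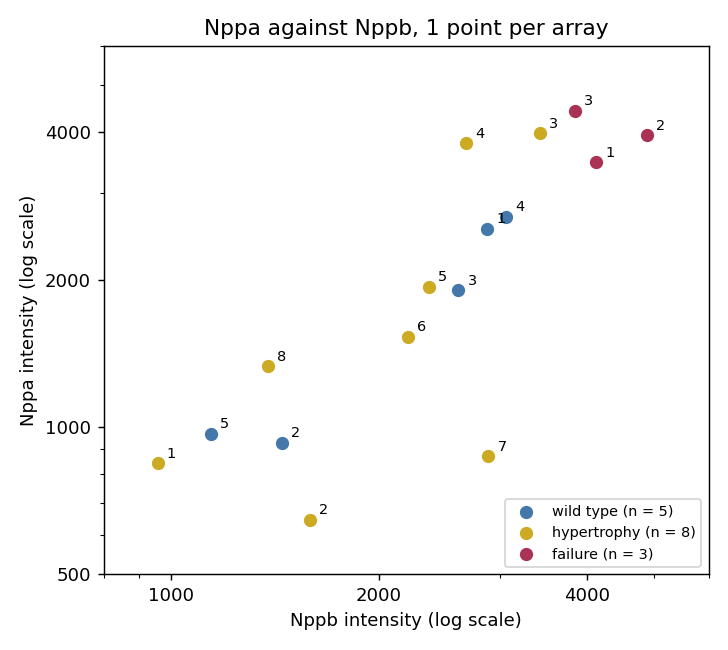
Intensity of Nppa against that of Nppb on log axes, 1 point per array of the first type, numbered by replicate and coloured by group (5 wild type, 8 hypertrophy, 3 failure). The 3 failure arrays and hypertrophy replicate 3 lie at the upper right, and hypertrophy replicates 7 and 2 lie below the other arrays at their Nppb level.

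The other 4 relations computed in the same family were between Nppa and markers of hypertrophy or RNA quality over the 8 hypertrophy arrays. Nppa had r = 0.31 with the skeletal alpha actin gene Acta1, -0.19 with the beta myosin heavy chain gene Myh7, -0.27 with the atrial light chain gene Myl7 and 0.30 with the Gapdh 5′ to 3′ ratio, each with an exact permutation p adjusted over the 5 relations of 0.653. The rho values were 0.19, -0.29, -0.17 and -0.17 (exact permutation, adjusted p = 0.703 for each), and r without hypertrophy replicates 3 and 4 was -0.63, -0.49, -0.50 and 0.18. For Myh7 the brighter probe set (98616_f_at) was used, and the relation of Nppa to the dimmer one (161547_f_at) was not computed. With the probe sets used, the hypertrophy arrays with the most Nppa were therefore not shown to be those with the most Acta1, Myh7 or Myl7. Acta1, for example, was highest in replicates 3 and 2 (5055 and 4501), of which replicate 3 had the highest and replicate 2 the lowest Nppa of the group.

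The receptor probe sets were dim throughout. For comparison of dim signals a floor was set at the 20th percentile of each array type, 39.5 on the first and 27.5 on the second, and values under it have no order. A signal under the floor is not evidence that a transcript is absent, since a probe set can respond poorly. Npr1, the cyclase receptor for both peptides, lay below the floor on all 16 arrays, at 8.43 to 18.8 in wild type, 11.0 to 26.2 in hypertrophy and 13.9 to 32.2 in failure.

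Npr3, the clearance receptor, was measured by 4 probe sets. One (99806_at) was below the floor on all 16 arrays. Another (160989_r_at) was above it on 1 array, failure replicate 1 at 41.2, and the failure replicates 2 and 3 were below at 27.1 and 38.0. A further one (97711_at) was above it in failure replicate 3 alone, at 51.8, with failure replicates 1 and 2 just under it at 37.8 and 39.5 and the highest wild type array at 36.7. The arrays above the floor thus differed between probe sets of the same gene.

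The Npr3 probe set of the second type (106138_at) was above its floor on the larger part of the transgenic arrays. In wild type replicates 1 to 5 it read 26.8, 33.9, 24.8, 23.8 and 19.5, so 4 of 5 were below the floor. In hypertrophy the lowest was 25.5, the median 38.0 and the highest 43.0, with 1 of 8 below the floor. In failure it read 41.4, 34.6 and 16.9, with 1 of 3 below. No receptor probe set reached its array's median on 3 arrays, so none entered the test. With no filter on dim probe sets, 0 of the 5 were called in any comparison, with 2 unadjusted limma p-values under 0.05: 0.0210 for the second-type Npr3 probe set in hypertrophy against wild type (log2 difference 0.34 ± 0.13 SE, adjusted p = 0.482) and 0.0446 for 97711_at in failure against hypertrophy (0.13 ± 0.06, adjusted p = 0.557). In the same fits 8.21% and 8.86% of all probe sets had such a p-value. For 97711_at every array but failure replicate 3 (51.8) was set to the floor, so its difference, SE and p-value rest on 1 array. The floor understates such differences.

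**Figure D4:**
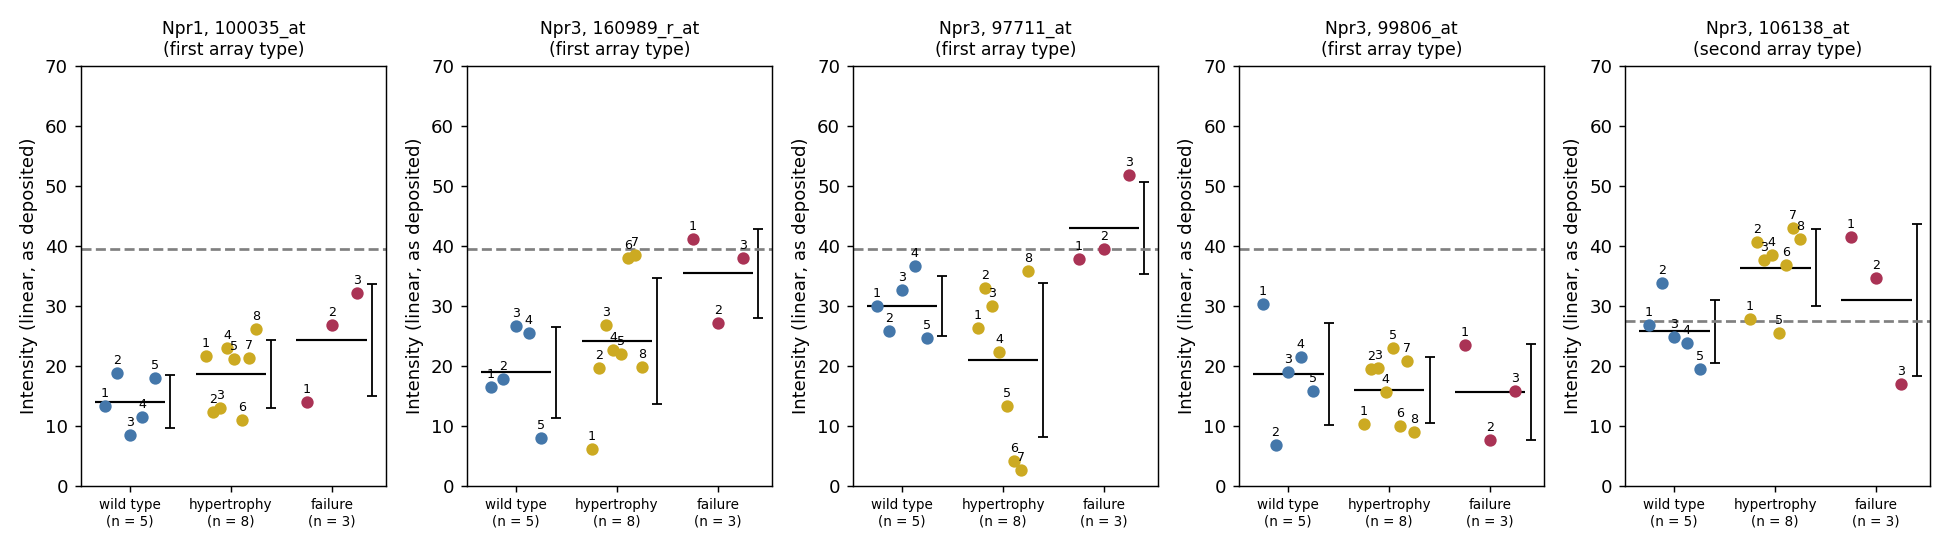
Intensity of the 5 receptor probe sets, 1 panel each (Npr1 and 3 of Npr3 on the first array type, 1 of Npr3 on the second), with 1 point per array, the group mean as a line, the SD as a bar and the floor as a dashed line. On the first type all but 2 points lie below the floor of 39.5, and on the second the larger part of the hypertrophy arrays lies above the floor of 27.5 and the larger part of wild type arrays below it.

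Genes that make, cut and degrade the peptides were taken from lists of the pathway. Among 7 ligands and convertases 6 were measured and 5 tested, and 0 were called in any of the 3 comparisons. On the second array type, which holds some of the pathway genes, 0.357% of tested probe sets were called between failure and wild type, 0.171% between hypertrophy and wild type and 0.0286% between the transgenic groups. The median log2 difference of the ligand list between failure and wild type was 0.18, beside 0.04 over all tested probe sets. Corin, the membrane protease that cuts the Nppa precursor, read 485, 335, 180, 152 and 308 in wild type and 580, 508 and 498 in failure. All 3 failure arrays lay above all 5 wild type arrays, which held for 8.58% of tested probe sets of the first type. The hypertrophy arrays of Corin ran from 189 to 500. Its log2 difference to wild type was 0.98 ± 0.34 (SE; unadjusted p = 0.00949, adjusted p = 0.279 in limma). Furin, a general convertase, differed by 0.23 ± 0.19 and Nppc, the gene of C-type natriuretic peptide, by 0.18 ± 0.16, neither past the threshold.

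Among 7 genes of peptide degradation 3 were tested and 0 called, with a median difference of -0.06. Ide, the insulin-degrading enzyme that also degrades natriuretic peptides, read 351, 271 and 333 in failure and 354 to 415 in wild type. Its difference was -0.29 ± 0.17 (SE, limma adjusted p = 0.588). Mep1b, a subunit of the metalloprotease meprin, differed by -0.06 ± 0.15. Mme, which encodes neprilysin, the protease best known for degrading these peptides, was not tested for low signal and read 33.9 to 60.5 in wild type and 25.8, 39.7 and 54.4 as its lowest, middle and highest value in failure.

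Genes of cGMP signalling were listed in the same way, and 0 were called in any comparison. The lists were other guanylyl cyclases (2 of 9 tested), cGMP kinases, targets and channels (4 of 13 tested) and cGMP phosphodiesterases (5 of 11 tested). The median differences between failure and wild type were 0.05, -0.23 and -0.24. The brightest probe sets of all 4 tested kinase targets and channels had lower means in failure, and the smallest p-values were those of Mrvi1, the cGMP kinase substrate that restrains calcium release (-0.26 ± 0.15, SE), and Pln, phospholamban, the inhibitor of the calcium pump (-0.21 ± 0.15). Dimmer tested probe sets went the other way for Pln (111363_at, 0.17 ± 0.25) and for Ppp1r12a, the myosin phosphatase subunit (116636_at, 0.66 ± 0.29). Gucy2e and Gucy2c, cyclases best known from retina and gut, differed by 0.21 ± 0.16 and -0.10 ± 0.14. Of the phosphodiesterases, Pde3b differed by 0.23 ± 0.11 and Pde1a by -0.24 ± 0.13. None of these passed the threshold in limma.

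Of 29 transcription factors and cofactors that act at Nppa and Nppb, 18 were tested and 0 called in any comparison, with a median difference between failure and wild type of 0.05. Egr1, an immediate early factor, read 532 and 466 in failure replicates 1 and 2 and 90.4 in replicate 3, against 111 to 219 in wild type, a log2 difference of 0.91 ± 0.43 (SE). Without failure replicate 3 it was called at 1.73 (limma adjusted p = 0.0120). Nkx2-5, the homeobox factor of heart muscle, differed by -0.30 ± 0.15 and Gata4, the zinc finger factor, by 0.16 ± 0.15 in the brighter of its probe sets. Neither passed the threshold, and the matches to their motifs in the printed windows are given without any reading of these values.

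The other markers of hypertrophy give a frame for the peptide genes. Of 16 listed, 15 were tested and their median log2 difference between failure and wild type was 0.61, beside 0.04 over all tested probe sets of the first type. The list was drawn up with earlier results of these data known, so its direction is no independent evidence. Xirp2, a protein of the intercalated disc, was the member called (1.48 ± 0.27 SE, limma adjusted p = 0.0237) on the second type, where 0.357% of tested probe sets were called. That call was lost without wild type replicate 1, 3, 4 or 5 or failure replicate 1 or 2 (adjusted p = 0.0519 to 0.137) and with the replicate number as a block (1.48, adjusted p = 0.172). The dimmer of the Myh7 probe sets (161547_f_at) rose by 1.81 ± 0.23 (adjusted p = 0.00374), and the brighter one differed by 0.61 ± 0.13 (adjusted p = 0.0752). Acta1 differed by 1.34 ± 0.49 (adjusted p = 0.326), a standard error close to that of Nppa. Ccn2, a matrix protein induced by stress, differed by 1.88 ± 0.39 (adjusted p = 0.0587), with 1516, 1982 and 1592 in failure and 311 to 762 in wild type.

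Markers of atrial muscle are given beside Nppa because atrial muscle is rich in its transcript. Of 15 listed, 15 were measured, 9 were tested and 0 called in any comparison, and the median difference between failure and wild type was 0.08. Their summed intensity on the first type was 2863 to 3974 in wild type, 2622 to 4371 in hypertrophy and 2930 to 4328 in failure, and Nr2f1 was below the floor on all arrays. Pam made up much of this sum, with a mean of 1828 over the arrays, beside 245 for Myl7 and 241 for Myl4. Its difference between failure and wild type was -0.29 ± 0.28 (SE). The sum therefore says little about the dimmer genes of the list. The atrial light chain Myl4 read 69.8, 64.1 and 730 in failure replicates 1 to 3, against 139 to 507 in wild type. Nppa read 3475, 3943 and 4420 in failure replicates 1 to 3, so it was highest on the same failure array as Myl4. Without failure replicate 3 the Nppa difference to wild type was 1.18 (limma adjusted p = 0.495). Myl7, the other atrial light chain and also a marker of hypertrophy, read 506, 300 and 750 in failure against 112 to 299 in wild type, a difference of 1.60 ± 0.42 (adjusted p = 0.149). In hypertrophy replicate 7, Myl4 read 670 with a Nppa of 872. In wild type, replicates 2 and 5 had the 2 lowest values of Nppa (929 and 968), Myl4 (139 and 170) and Myl7 (112 and 113). Other genes of the atrial list went the other way on these arrays. Bmp10 read 127 and 151 there and Sln, not tested for low signal, 85.9 and 52.9, the 2 highest wild type values of each. The remaining genes of the list are not given array by array. Wild type replicate 1, with a Nppa of 2538, was highest in Myl4 (507) and Myl7 (299). Wild type replicate 4, highest in Nppa (2688), read 195 and 156. The part of atrial tissue in the Nppa values was not tested.

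Markers of other cells were summed in the same way. Fibroblast markers had a summed intensity on the first type of 5488 to 6769 in wild type, 4585 to 9065 in hypertrophy and 5891 to 10532 in failure. Of 12 tested, 0 were called in any comparison, and their median difference between failure and wild type was 0.53. The list of ventricular muscle markers summed to 52340 to 58631, 49131 to 61904 and 57375 to 59638 in the 3 groups. That list holds genes such as Myh6, Tnnt2 and Actc1 and was not compared with atrial tissue. In the lists of endothelial, smooth muscle, macrophage, epicardial and adipocyte markers 0 genes were called in any comparison, with median differences between failure and wild type of 0.09, 0.04, 0.15, 0.05 and 0.05. The part of these cells in the peptide values was not tested.

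The genes around the peptide locus were listed by position. Of 19 genes starting within 200 kb of Nppa or Nppb in the GRCm38.p6 table, 10 were measured and 8 tested, and 1 was called in failure against wild type. In that comparison 0.143% of all tested probe sets of the first type and 0.357% of the second were called. The gene called was Agtrap, which encodes a protein that binds the angiotensin receptor and begins at base 148077061 of chromosome 4. It read 87.9 to 111 in wild type and 177, 219 and 139 in failure, and rose by 0.81 ± 0.14 (SE, limma adjusted p = 0.0263). Its probe set on the second type went the other way (-0.37 ± 0.16, adjusted p = 0.336), and the call was lost without any 1 of the 5 wild type arrays or failure replicate 1 or 2 (adjusted p = 0.0565 to 0.260) and with the replicate block (0.83, adjusted p = 0.154). Fbxo2 was the next by p-value, at 0.43 ± 0.15 (adjusted p = 0.224). The median of the 8 was 0.22, beside 0.04 over all tested probe sets of the first type.

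The genes whose pattern was most like that of each peptide gene were found by Pearson's r of log2 intensity over the 16 arrays of the first type, which share the arrays, their scaling and the group differences. For Nppa they were Gpx3, a secreted glutathione peroxidase (r = 0.92), Enah, an actin regulator (0.88), Ly6g6d (0.88), Arih2, a ubiquitin ligase (0.88), and Gli3, a transcription factor (0.86). For Nppb they were Enah (0.96), Slc38a2, an amino acid transporter (0.91), Sftpd, a surfactant protein (0.90), Grk5, a kinase of G protein coupled receptors (0.87), and Palm (0.87). The peptide genes themselves had r = 0.82 with each other, so that Nppb stood at rank 19 of the probe sets most like Nppa and Nppa at rank 25 of those most like Nppb. These correlations are descriptions over arrays and carry no p.

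Gpx3 and Enah show the pattern in full. Gpx3 read 1509, 2246 and 2602 in failure, lowest in replicate 1 and highest in replicate 3 as Nppa was, and its highest hypertrophy array was replicate 3 (1889), as for Nppa. Enah read 196, 199 and 181 in failure, against 55.8 to 122 in wild type and 38.7 to 156 in hypertrophy, with no overlap between failure and the other groups. All failure arrays lay above all wild type arrays for 8.58% of tested probe sets, and above all hypertrophy arrays for 1.75%. Neither Gpx3 nor Enah was called against wild type in limma (Gpx3 0.61 ± 0.31, adjusted p = 0.517, and Enah 1.10 ± 0.33, adjusted p = 0.218). A brighter Enah probe set (100472_at) had r = 0.84 with Nppa and 0.85 with Nppb. On the second type the Enah probe set 107467_at differed by 0.82 ± 0.34 (SE) between failure and wild type. The dimmer 163866_at did not share the pattern, at 0.06 ± 0.16 (SE) against wild type and -0.14 ± 0.15 (SE) against hypertrophy. For Arih2 and Slc38a2 a second probe set went against the likeness: r was 0.29 with Nppa and -0.11 with Nppb. With each group centred on its own mean, 2 of the 5 genes stayed among the nearest 5 for each peptide gene: Gpx3 and Ly6g6d for Nppa, and Enah and Sftpd for Nppb.

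**Figure D5:**
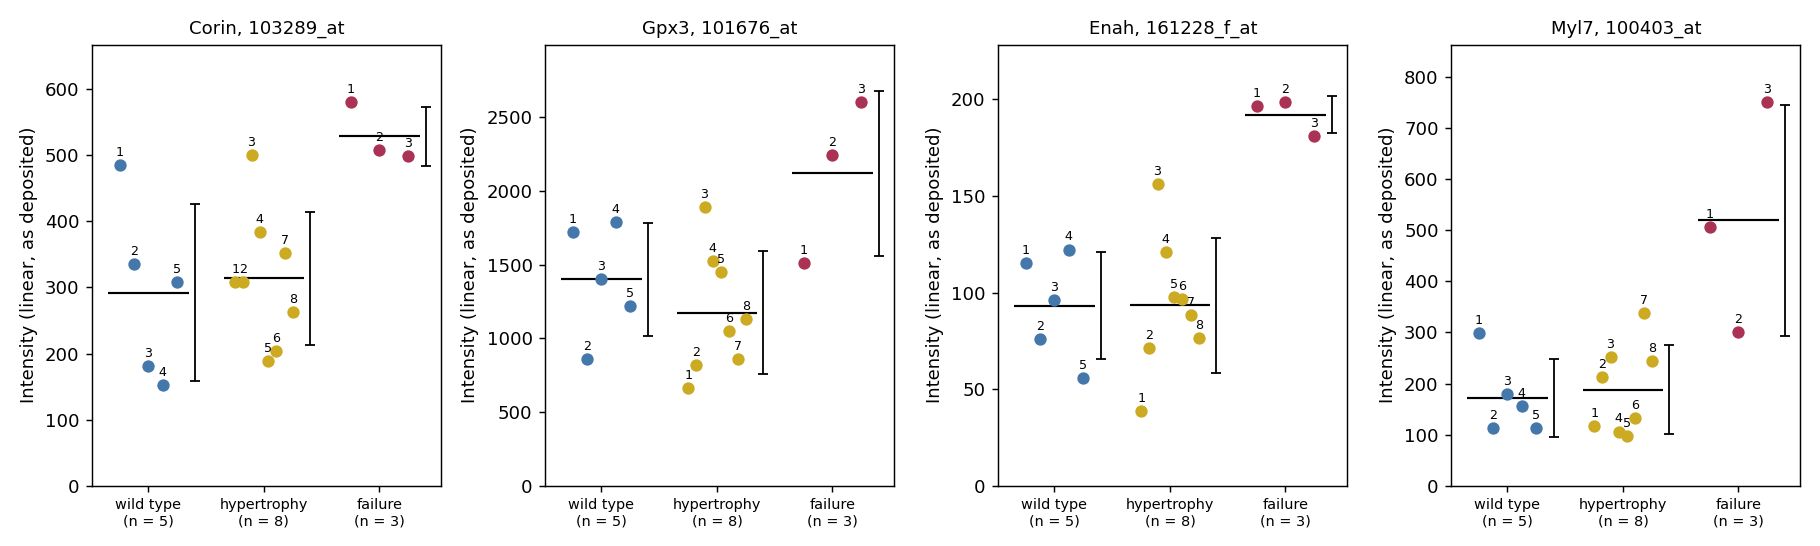
Intensity of Corin, Gpx3, Enah and Myl7 on the first array type, 1 point per array with its replicate number, the group mean as a line and the SD as a bar (5 wild type, 8 hypertrophy, 3 failure). Enah failure arrays (181 to 199) stand clear of both other groups, Corin failure arrays (498 to 580) lie above all wild type arrays and reach the highest hypertrophy array (500), Myl7 failure arrays (300.0 to 750) lie above all wild type arrays (highest 299) and overlap hypertrophy, and Gpx3 failure arrays overlap both other groups.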

How the data were processed

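Each probe set has 1 deposited intensity per array, on a linear scale. The scaling and summarisation that the authors applied were not given in the sources used here, and the intensities were used as deposited. A floor was set at the 20th percentile of each array type (39.5 and 27.5), and lower values were set to the floor before log2. A probe set was tested if it reached its array's median on at least 3 arrays, which left 6980 of 12488 and 7004 of 12477. Symbols came from the platform annotation (10855 and 10603 probe sets with 1 symbol, 396 and 178 with several, 1237 and 1696 with none), and 12 and 20 were updated to GRCm38.p6.

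Each array type was fitted separately in limma 3.58.1 (R 4.3.3; lmFit and eBayes) over its 16 arrays, so that the 3 groups share a spread, and p-values were adjusted by Benjamini-Hochberg over all tested probe sets of the type and comparison (threshold 0.05). The fit was tested on simulated data. Exact permutations went through all arrangements or orderings of the arrays. Their ranks and adjustment used scipy 1.17.1, and figures matplotlib 3.10.9. The number of arrays limits the precision.

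A gene with several probe sets is represented by its brightest, on the first type where it is there. For likeness each gene counts by its most alike probe set. Named were all members, called genes of the lists and the 2 smallest p-values of each list in failure against wild type, the 5 genes most like each peptide gene, and Acta1, Myh7 and Myl7. Other named genes (Nppc, Mme, Gata4, Myl4, Bmp10, Sln, Nr2f1 and the ventricular and sex-linked controls) were chosen after their values were seen. The members and lists were chosen with earlier results of these data known. Alternatives covered scaling, floor, filter, spread, array weights, the groups in the fit, the replicate number as a block, adjustment over both types, RNA quality and leaving out each array; the Xist covariate and the test of Nppa minus Nppb were added after seeing the data.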

Additional observations from a re-analysis of the deposited data

Results flagged for a closer look

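Of 72 groups of arrays examined for the genes named in the report, 2 held a sample far from the others by Dixon's criterion, where chance alone gives about 1 in 20. Mep1b read 310.8 in hypertrophy replicate 4, while the other 7 hypertrophy arrays lay between 213.7 and 241.8. Mrvi1 read 586.5 in hypertrophy replicate 6, while the others lay between 378.6 and 474.1; that array has the Gapdh 5′ to 3′ ratio of 0.468. No wild type or hypertrophy group of Nppa or Nppb values held such a sample, and the failure groups of 3 were not examined.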

How the results depend on the processing

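Over 31 alternatives to each fit, the log2 difference of failure to wild type ran from 1.06 to 1.47 for Nppa and from 0.83 to 1.56 for Nppb, and that of failure to hypertrophy from 1.002 to 1.57 and from 0.92 to 1.48. Neither gene was called except Nppb with array weights, so the members called went from 0 to 1 in both failure comparisons under that setting. The number of pathway list genes called went from 0 to 4 against wild type (Corin, Egr1, Ide and Pde1a) and to 1 against hypertrophy (Egr1) with array weights, and from 0 to 1 in each (Egr1) without failure replicate 3; over the other single arrays left out it was 0. Leaving out 1 array never moved the members called from 0.

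Hypertrophy against wild type changed sign. Nppa (-0.11) was 0.085 with array weights, 0.089 with the replicate block and 0.025 without hypertrophy replicates 6 and 7, and ran from -0.31 to 0.073 with 1 array left out. Nppb (-0.03) was 0.030 with quantile scaling and 0.071 with the Actb covariate, and ran from -0.24 to 0.13. For failure minus wild type, Gata4 was -0.036 with the Actb covariate, and Mep1b was 0.011 with array weights and ran from -0.12 to 0.040 (0.019 without failure replicate 3). The cause of these changes was not tested. The correlation of Nppa and Nppb over hypertrophy arrays ran from 0.50 without replicate 3 to 0.84 without replicate 7 and was 0.86 without replicates 6 and 7; with quantile scaling it was 0.62 and with median scaling 0.58.

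With the replicate number as a block (replicate block) the failure differences to wild type were 1.47 for Nppa (limma adjusted p = 0.312) and 1.10 for Nppb (adjusted p = 0.375). Deviations of same-numbered arrays correlated at -0.19 to 0.36. Differently numbered arrays were not compared in this way, so whether the numbers pair the samples cannot be told. The block took the whole-table calls of failure against wild type from 10 to 3 on the first type and from 25 to 6 on the second, and those of Xirp2 (1.48, adjusted p = 0.172) and Agtrap (0.83, adjusted p = 0.154) were lost.

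On the first type the 10 calls of failure against wild type became 1002 with array weights, 122 with only the groups compared in the fit, 42 with the Actb covariate, 34 without hypertrophy replicates 6 and 7, 33 with median scaling, 30 with quantile scaling, 28 with the Gapdh covariate, 22 with no filter, 20 with log2(value + 32), 17 adjusted over both types, and 0 to 51 with 1 array left out. On the second the 25 became 428, 193, 81, 70 and 40 under the first 5 of these settings, 71 with the Gapdh covariate, 55 with no filter, and 4 to 79. Failure against hypertrophy had 0 and 2 calls, 274 and 30 with array weights, 10 and 12 with no filter, and 0 to 24 and 0 to 13 with 1 array left out. Hypertrophy against wild type had 0 calls on the first type, 1 with no filter and 0 to 1 with 1 array left out, and 12 on the second, 22 with array weights, 7 without hypertrophy replicates 6 and 7 or adjusted over both types, 3 with the replicate block and 5 to 25 with 1 array left out. Signals under the floor limit what can be said of the receptors.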
